A study of Mus musculus with 20 samples.

Results

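The cytosolic ribosomal protein genes encode the protein components of the large and small subunits of the ribosome that translates nuclear messages. They were taken here as the protein-coding genes of the mouse GENCODE vM21 annotation whose symbol is Rpl, Rps or Rplp followed by a number and, at most, a closing a, x or l. The pattern matched 82 symbols, of which Rps4l, Rpl32l and Rpl6l were not annotated as protein coding and were left out. The remaining 79 genes, 49 of the large and 30 of the small subunit, were all listed among the 55335 genes of the deposited files. Of these, 77 passed the filter on low values (at least 1 FPKM in at least 5 libraries) and could be tested, 47 of the large and all 30 of the small subunit. FPKM stands for fragments per kilobase and per unit of library size; no file header states the unit, which was taken from the submitters' processing notes naming Cuffnorm, and the scaling between libraries is not stated either. The 2 genes that did not pass, Rpl3l and Rpl10l, are described by their values.

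RNA was sequenced from 20 CT26 tumours, 1 library per tumour and 5 per group. CT26 is a mouse line from a chemically induced colon carcinoma. The groups were POLE-mutant tumours given anti-PD-1, POLE-mutant tumours given PBS, vector tumours given anti-PD-1 and vector tumours given PBS. POLE encodes the main subunit of a replicative DNA polymerase, epsilon, and anti-PD-1 is an antibody against an inhibitory receptor of T cells. The vector tumours carry the genotype label control. The series title names CHEK2, whereas the sample labels and the design text name POLE, and the groups are called by the sample labels. Which POLE mutation was used, whether the cells were 1 clone, and the dose and timing of the antibody are not stated in the sources.

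Most ribosomal proteins are needed in 1 copy per ribosome, and their messages are among the most abundant in growing cells. In mammals most of these messages start with a C followed by a run of pyrimidines (the 5′ terminal oligopyrimidine, or TOP, motif), through which mTORC1 and the RNA-binding protein LARP1 control their translation and stability. Levels of ribosomal protein messages are high in proliferating tumour cells and differ between cell types.

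The sequence around the annotated start is shown for the members on which the results below turn, since most such messages carry the TOP motif. Each window runs from 15 bases before to 15 bases from the start in RefSeq (build GRCm38.p6), is written 5′ to 3′ on the gene's strand, and has the longest run of at least 5 pyrimidines that opens with a C in capitals.
Rpl39l (chr16:10170213-10170242, plus strand): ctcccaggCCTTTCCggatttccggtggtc
Rpl39 (chrX:37085208-37085237, minus strand): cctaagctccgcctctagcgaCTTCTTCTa
Rpl31 (chr1:39367836-39367865, plus strand): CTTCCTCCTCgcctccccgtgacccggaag
Rpl37a (chr1:72711245-72711274, plus strand): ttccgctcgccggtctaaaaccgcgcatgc
Rps12 (chr10:23787195-23787224, minus strand): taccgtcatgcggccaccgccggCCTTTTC
Rps18 (chr17:33955651-33955680, minus strand): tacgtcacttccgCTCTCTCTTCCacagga
Rpl4 (chr9:64173372-64173401, plus strand): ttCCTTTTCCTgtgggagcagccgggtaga
Rps6 (chr4:86857353-86857382, minus strand): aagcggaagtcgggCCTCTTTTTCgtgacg
Rplp2 (chr7:141447636-141447665, plus strand): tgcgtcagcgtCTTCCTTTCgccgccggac
Such a run was present within this window in 41 of the 59 members that the RefSeq promoter table held (69.5%), against 40.3% of the 27025 genes in that table. Rpl37a, which had among the largest differences below, had no such run in this window, and its RefSeq start lies upstream of its GENCODE start. In the 300 bases from 250 before to 50 after the start, read on both strands, CGGAAG (the core of an ETS factor motif) was found in 67.8% of the 59 members and in 18.8% of all genes. A GC box, GGGCGG, was found there, also on both strands, in 59.3% of the members and 38.2% of all genes.

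TATAAA, the core of a TATA box, was found in the same windows and on both strands in 10.2% of the members and 15.7% of all genes. Matches of the other motifs may overlap each other.

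Depth is unknown, because the files hold no counts. Total FPKM per library ran from 328740 to 566913. Separate mice are stated only through the group sizes, so p-values measure the spread between these samples. Vector anti-PD-1 replicate 1 and POLE-mutant anti-PD-1 replicates 1 and 2 stood apart, with mean Spearman correlations to the other libraries of 0.776, 0.748 and 0.835, against 0.899 to 0.93 in the other 17. Vector anti-PD-1 replicate 1 also had the highest total, and 8.4% of it came from small RNA genes. Epithelial markers of the carcinoma line were low: of Krt8, Krt18, Krt19, Epcam, Cdh1, Cdx2, Vil1 and Cldn4, 1 reached 1 FPKM in POLE-mutant anti-PD-1 tumours and 3 in each other group. Their summed FPKM was 1.84 to 7.95 in POLE-mutant anti-PD-1 tumours, 7.64 to 16.2 in POLE-mutant PBS tumours, 12.5 to 27.4 in vector anti-PD-1 tumours and 12.1 to 22.1 in vector PBS tumours, and Cdx2 was at 0 in every POLE-mutant anti-PD-1 tumour.

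Ribosomal protein genes took up the smallest part of the transcriptome in POLE-mutant tumours given anti-PD-1, and both subunits were lower there to a similar extent. Their summed FPKM was 6.19, 6.71, 8.76, 9.08 and 7.77% of the library total in POLE-mutant anti-PD-1 tumours. It was 11.7, 11.2, 9.23, 10.4 and 11.1% in POLE-mutant PBS tumours. It was 22.7, 12.9, 11.0, 12.5 and 11.7% in vector anti-PD-1 tumours and 12.6, 13.1, 12.9, 11.5 and 10.7% in vector PBS tumours. Every POLE-mutant anti-PD-1 tumour lay below every tumour of the other 3 groups, and vector anti-PD-1 replicate 1 lay above all others. The large subunit averaged 4.82 ± 0.863% and the small subunit 2.88 ± 0.393% of the total in POLE-mutant anti-PD-1 tumours, against 6.74 ± 0.596% and 3.99 ± 0.365% in POLE-mutant PBS tumours (SD, n = 5 each). In vector anti-PD-1 tumours the 2 shares averaged 8.86 ± 3.07% and 5.31 ± 1.77%, against 7.61 ± 0.645% and 4.57 ± 0.408% in vector PBS tumours (SD, n = 5 each). In bulk tumour RNA, fewer cells of a type and less RNA per cell cannot be told apart.

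**Figure D1:**
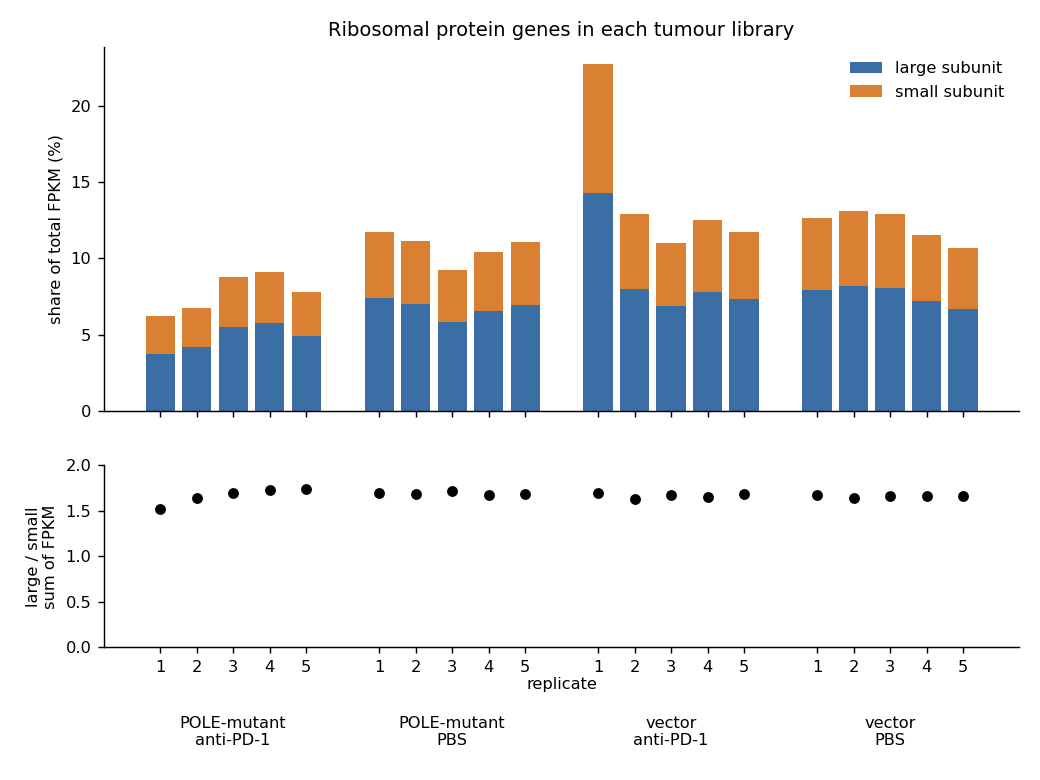
Share of total FPKM (%) taken by large (blue) and small (orange) subunit genes in each of the 20 libraries (upper panel), and the ratio of the summed FPKM of the large to that of the small subunit (lower panel). Shares of both subunits together run from 6.19 to 22.7%, while the ratio stays between 1.52 and 1.74.

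The balance of the subunits stayed within a narrow range. The summed FPKM of large subunit genes was 1.52 to 1.74 times that of small subunit genes over the 20 libraries (median 1.68). POLE-mutant anti-PD-1 replicate 1 had the lowest ratio, 1.52, and replicate 5 of that group the highest, 1.74. The ratio averaged 1.67 ± 0.091 in POLE-mutant anti-PD-1 tumours and 1.69 ± 0.0163 in POLE-mutant PBS tumours (SD, n = 5 each). It averaged 1.67 ± 0.027 in vector anti-PD-1 tumours and 1.66 ± 0.013 in vector PBS tumours (SD, n = 5 each). Without the 3 libraries that stand apart, it was 1.70 to 1.74 in the 3 other POLE-mutant anti-PD-1 tumours and 1.63 to 1.68 in the 4 other vector anti-PD-1 tumours. On the log2(FPKM + 1) scale the mean of the tested large subunit genes minus that of the small was between -0.157 and 0.072 in every library. Its 2 lowest values, -0.157 and -0.12, were those of POLE-mutant anti-PD-1 replicate 1 and vector anti-PD-1 replicate 1.

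Members differed widely among themselves in level. Mean FPKM over the 20 libraries ran from 58.5 (Rpl35a) to 3220.2 (Rplp1) in the large subunit and from 110.1 (Rps15a) to 1884 (Rps15) in the small subunit, with medians of 395 and 382. Rplp1, the acidic protein of the stalk that recruits elongation factors, was the highest in FPKM of all members, followed in the large subunit by Rpl36 and Rpl23a. Its partner Rplp2 averaged 269 and the stalk base Rplp0 985 FPKM. After Rps15, the highest small subunit genes were Rps4x, the X-linked form of eS4, and Rps29, at 1442 and 1201 FPKM. At the low end were Rpl29 and Rpl22 in the large subunit and Rps13 and Rps27l in the small, at 75.6, 97.7, 114.6 and 139.5 FPKM. On the log2(FPKM + 1) scale, each member's correlation over the 20 libraries with the mean of the other tested members was 0.762 to 0.997 (median 0.968), a description of values that share library scaling. Over the 17 libraries without those standing apart it was 0.487 to 0.992 (median 0.956), and the lowest was Rplp2. Near-identical copies make these levels uncertain: 290 annotated ribosomal protein pseudogenes summed to 30.0 to 33.5% of the members' FPKM in every library.

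**Figure D2:**
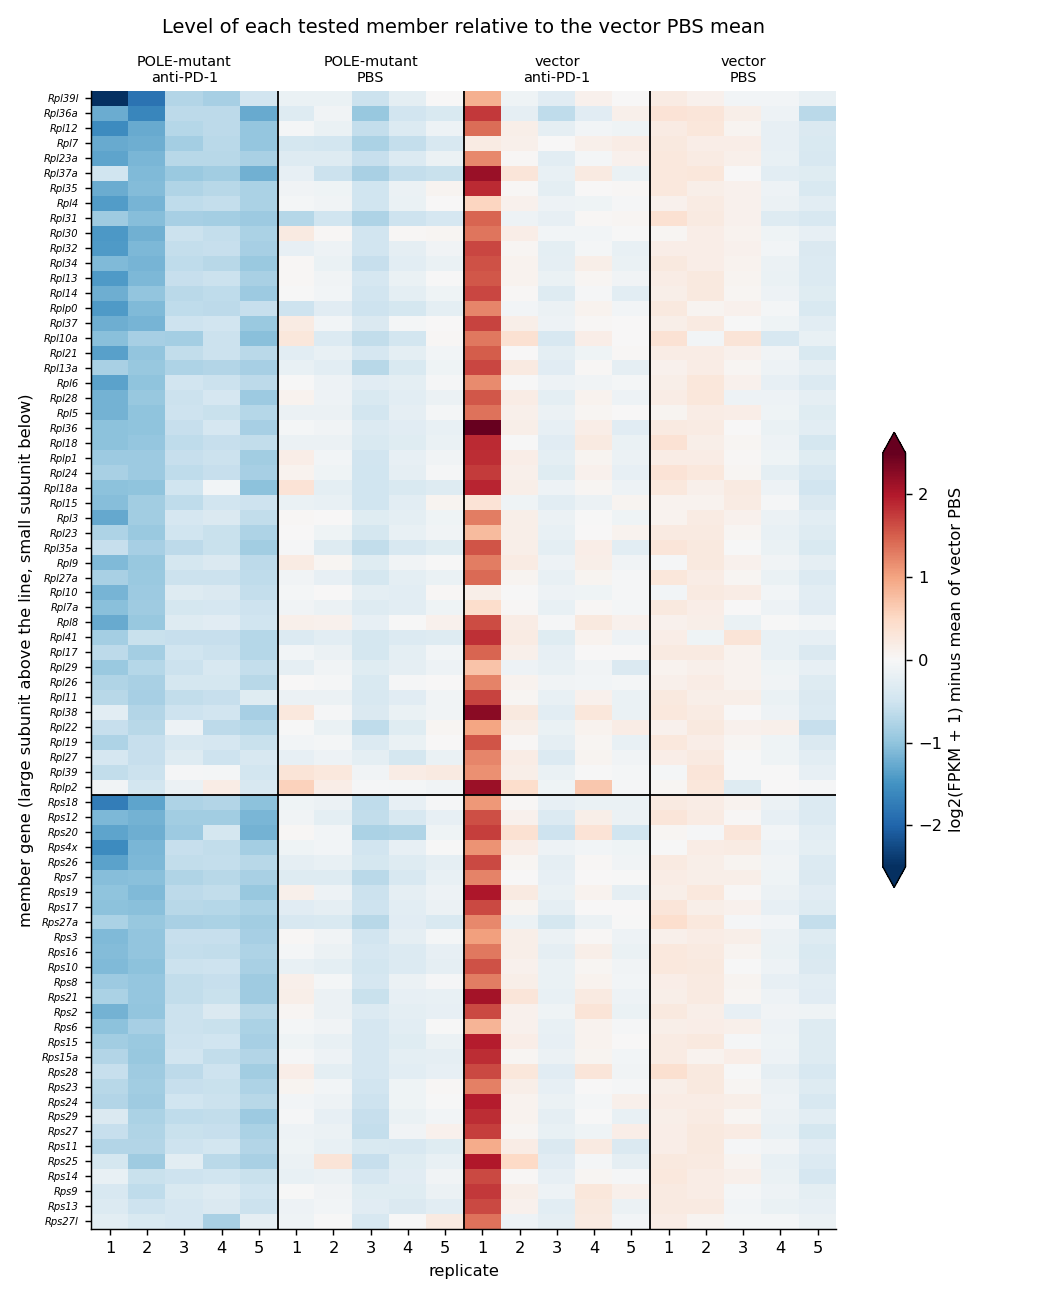
Level of the tested members (rows, 1 not shown, large subunit above the line and small subunit below) in each library (columns), as log2(FPKM + 1) minus the mean of the 5 vector PBS libraries. POLE-mutant anti-PD-1 replicates 1 and 2 are the bluest columns, POLE-mutant PBS replicate 3 is also blue in most members, and the red column is vector anti-PD-1 replicate 1.

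Ribosomal protein genes were lower in POLE-mutant than in vector tumours given anti-PD-1, nearly without exception. Of the 77 tested members 75 fell and 0 rose (limma, adjusted p under 0.05), against 15.1% of all 13982 tested genes that fell and 17.8% that rose. The calls covered 45 of 47 large subunit genes and all 30 small subunit genes. The median log2 fold change was -1.04 for the members, -1.04 for the large and -1.01 for the small subunit, and 0.00 over all genes tested. In 67 members (87.0%) all 5 POLE-mutant tumours lay below all 5 vector tumours, which held for 7.83% of all genes. The 2 members that did not pass were Rpl39 and Rplp2, at adjusted p of 0.0553 and 0.059.

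The size of the difference rested in part on the libraries that stand apart. Without those 3 libraries 61 members fell, and the median log2 fold change was -0.48 for the large and -0.54 for the small subunit. The 2 outlying POLE-mutant anti-PD-1 libraries were the only 2 of that group whose title identifiers begin with M, a difference in naming that the labels do not explain. With M-style libraries alone 70 members fell (medians -1.55 and -1.48 for the large and small subunit), and with number-only ones 57 (medians -0.46 and -0.52). A fit of only these 2 groups called 28. The share of all genes that fell is given for the main fit only, so these counts cannot be set against it. Scaling every library to the same total put the median of all genes at 0.18 and those of the large and small subunit at -0.85 and -0.81. Markers of other cells moved with the same contrast: summed FPKM of 9 macrophage genes was 1620 to 4120 in POLE-mutant anti-PD-1 tumours and 408 to 1090 in vector anti-PD-1 tumours. Summed FPKM of 10 T cell genes was 98.4 to 154 in POLE-mutant anti-PD-1 tumours and 3.4 to 12.2 in vector anti-PD-1 tumours. For 14 skeletal muscle genes the sum was 106 to 1790 in POLE-mutant anti-PD-1 tumours and 2.84 to 583 in vector anti-PD-1 tumours. Of the tested genes of these lists, 9 of 9 macrophage, 9 of 9 T cell and 1 of 13 muscle genes rose. B cell genes (2 of 3 rose), erythroid genes (0 of 5 passed) and keratinocyte genes (1 of 1 fell) were also measured. Of the epithelial markers of the carcinoma line, 2 of 3 tested genes fell (median log2 fold change -0.92). Their part in the lower ribosomal protein levels was not tested, other than that 67 members fell with a muscle score as a term in the fit.

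Among large subunit genes the 2 with the lowest log2 fold changes were Rpl39l and Rpl37a. Rpl39l (ENSMUSG00000039209, chr16:10170226-10174911, GRCm38, as for all gene positions here) encodes a paralogue of a protein of the nascent peptide exit tunnel and is best known from male germ cells. It had 11.0, 36.9, 80.6, 75.3 and 97.1 FPKM in POLE-mutant anti-PD-1 tumours, against 253, 126, 111, 146 and 137 FPKM in vector anti-PD-1 tumours. The groups did not overlap, and the log2 fold change was -1.69 ± 0.392 (SE, adjusted p = 0.0032, limma). The spread within the POLE-mutant group was wide: replicate 1 was at 11.0 FPKM and replicate 5 at 97.1 FPKM. Without the 3 libraries the log2 fold change was -0.60, still past the threshold, and without POLE-mutant anti-PD-1 replicate 1 alone it was -1.13. Rpl37a (ENSMUSG00000046330, chr1:72711290-72713813), a zinc-binding protein of the large subunit, had 251, 166, 188, 195 and 155 FPKM in POLE-mutant anti-PD-1 tumours and 1598, 437, 315, 416 and 319 FPKM in vector anti-PD-1 tumours. Its groups did not overlap either, and its log2 fold change was -1.30 ± 0.296 (SE, adjusted p = 0.00283). Leaving out 1 library at a time gave -1.41 to -0.93. The vector mean of Rpl37a without vector anti-PD-1 replicate 1 was 372 ± 63.8 FPKM (SD, n = 4).

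Rpl3 and Rpl10 near the catalytic centre, Rpl5 and Rpl11 of the 5S particle and the stalk base Rplp0 fell too. Rpl3, Rpl10 and Rpl11 fell by less than the median member, and the stalk protein Rplp2 did not pass. Rpl3, which reaches towards the peptidyl transferase centre, averaged 218 ± 53.0 FPKM in POLE-mutant anti-PD-1 tumours and 442 ± 228 FPKM in vector anti-PD-1 tumours (SD, n = 5 each). Rpl10, a late-joining protein next to the P site, had 201, 239, 356, 351 and 297 FPKM in POLE-mutant anti-PD-1 tumours, against 494, 444, 411, 418 and 437 FPKM in vector anti-PD-1 tumours, with no overlap. Its log2 fold change of -0.65 ± 0.156 (SE, adjusted p = 0.00391) was among the smallest, and it was among the members least raised in vector anti-PD-1 replicate 1. Rpl5 and Rpl11, which bind 5S rRNA and can inhibit Mdm2, averaged 194 ± 37.8 and 131 ± 18.0 FPKM in POLE-mutant anti-PD-1 tumours, against 437 ± 232 and 282 ± 202 FPKM in vector anti-PD-1 tumours (SD, n = 5 each). Rplp0, the base of the stalk, averaged 615 ± 146 FPKM in POLE-mutant anti-PD-1 tumours and 1371 ± 680 FPKM in vector anti-PD-1 tumours (SD, n = 5 each). These vector means include the high values of vector anti-PD-1 replicate 1. Without that library they were 341 ± 30.8 FPKM for Rpl3, 334 ± 26.1 for Rpl5, 193 ± 19.7 for Rpl11 and 1068 ± 78.3 for Rplp0 (SD, n = 4). With all libraries the log2 fold changes were -0.92 for Rpl3, -1.05 for Rpl5, -0.86 for Rpl11 and -1.08 for Rplp0, all past the threshold.

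Members with reported roles beyond the core ribosome fell as well. Rpl38, needed in mouse embryos for translation of Hox messages, averaged 351 ± 54.3 FPKM in POLE-mutant anti-PD-1 tumours and 911 ± 859 FPKM in vector anti-PD-1 tumours (SD, n = 5 each). Rpl13a, part of an interferon-responsive translation repressor in human cells, averaged 407 ± 22.1 FPKM in POLE-mutant anti-PD-1 tumours and 1011 ± 717 FPKM in vector anti-PD-1 tumours (SD, n = 5 each). Rpl23, which can bind Mdm2, averaged 379 ± 46.5 FPKM in POLE-mutant anti-PD-1 tumours and 712 ± 202 FPKM in vector anti-PD-1 tumours (SD, n = 5 each). Rps27a, made as a fusion with ubiquitin, averaged 217 ± 10.1 FPKM in POLE-mutant anti-PD-1 tumours and 454 ± 251 FPKM in vector anti-PD-1 tumours (SD, n = 5 each). The wide spread in the vector group came with the high value of its replicate 1 in each of these genes. Without that library Rpl38 averaged 529 ± 103 FPKM in the other 4 vector anti-PD-1 tumours.

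In the small subunit Rps12 and Rps20 were among the members with the largest falls. Rps12 averaged 209 ± 23.7 FPKM in POLE-mutant anti-PD-1 tumours and 590.3 ± 400 FPKM in vector anti-PD-1 tumours (SD, n = 5 each), and its log2 fold change was -1.25 ± 0.255 (SE, adjusted p = 0.00122). Without vector anti-PD-1 replicate 1 its vector mean was 413 ± 64.7 FPKM (SD, n = 4). Rps20 overlapped between the groups, with 94.4, 99.7, 125, 173 and 103 FPKM in POLE-mutant anti-PD-1 tumours and 778, 306, 164, 299 and 165 FPKM in vector anti-PD-1 tumours (log2 fold change -1.23 ± 0.315, SE, adjusted p = 0.00604). Its call was lost without the 3 libraries (adjusted p = 0.113), with array weights (0.0578) and with only the compared groups (0.0615, all limma). Rps20 also lost it with median-ratio scaling without the 3 libraries (adjusted p = 0.166) and within number-only libraries (log2 fold change -0.33). Rps6, the substrate of S6 kinase, averaged 378 ± 53.4 FPKM in POLE-mutant anti-PD-1 tumours and 730.2 ± 230 FPKM in vector anti-PD-1 tumours (SD, n = 5 each). Without vector anti-PD-1 replicate 1 its vector mean was 630 ± 56.3 FPKM (SD, n = 4). Rps6 passed the threshold. So did Rps19, whose human gene is mutated in Diamond-Blackfan anaemia, and Rps3, which lies at the mRNA entry: Rps19 averaged 103 ± 16.1 FPKM in POLE-mutant anti-PD-1 tumours and 302 ± 260 FPKM in vector anti-PD-1 tumours (SD, n = 5 each), or 186 ± 28.0 FPKM (SD, n = 4) without vector anti-PD-1 replicate 1. Rps27l, a paralogue of Rps27 that p53 induces, passed with the highest adjusted p among the small subunit genes, 0.0446.

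**Figure D3:**
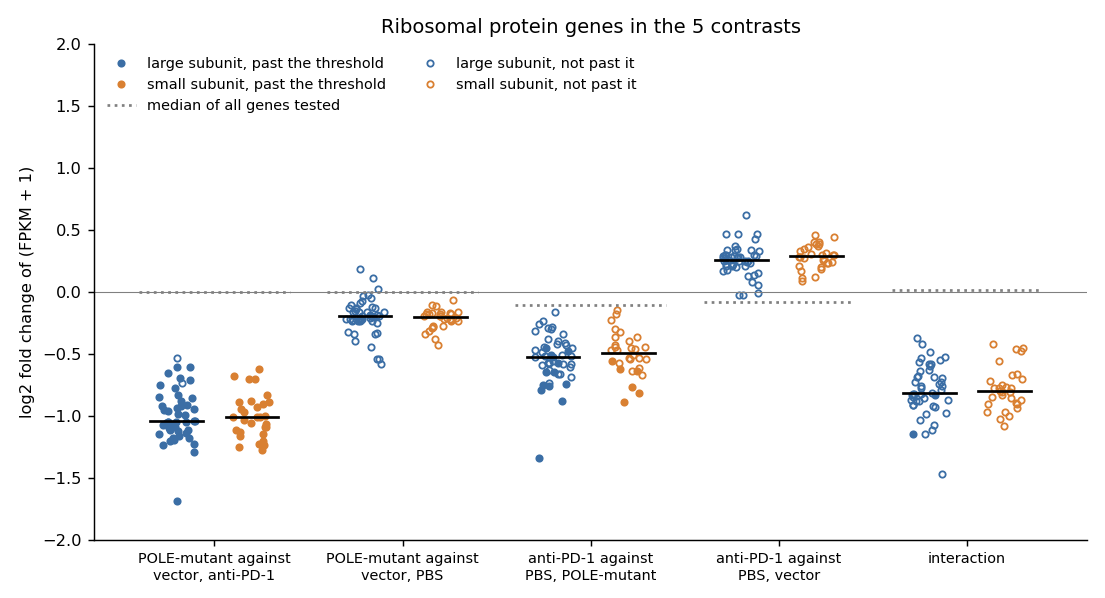
log2 fold change of (FPKM + 1) of the 77 tested members in 5 contrasts, large subunit in blue and small subunit in orange. Filled points passed the adjusted p threshold of 0.05, black bars are subunit medians and dotted lines the median of all genes tested. Under anti-PD-1 75 members passed, all lower in POLE-mutant tumours, and the 2 subunits overlap in every contrast.

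Ribosomal protein genes were also lower in POLE-mutant tumours given anti-PD-1 than in those given PBS, by a smaller margin. This contrast shares the POLE-mutant anti-PD-1 libraries with the one above. Of the 77 members 19 fell and 0 rose, against 14.6% of all genes that fell and 15.9% that rose. The 19 (24.7%) were 13 of the large and 6 of the small subunit. The median log2 fold change was -0.52 for the members (large -0.52, small -0.49), against -0.10 over all genes. In 54 members (70.1%) all 5 POLE-mutant anti-PD-1 tumours lay below all 5 POLE-mutant PBS tumours, which held for 11.8% of all genes.

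The count depended on scaling and libraries: 2 members passed after median-ratio scaling (Rpl39l and Rpl4), and leaving out 1 library at a time gave 4 to 24. The lowest, 4, came without POLE-mutant anti-PD-1 replicate 1. It was 5 without replicate 2 of that group or replicate 5 of POLE-mutant PBS, 9 and 11 without replicates 1 and 2 of POLE-mutant PBS, and 12 without its replicate 4. Within identifier styles 9 passed with M-style libraries alone and 52 with number-only ones. The share of all genes is given for the main fit only, so a change over all genes may underlie these counts. Macrophage genes summed to 362 to 1070 FPKM in POLE-mutant PBS tumours and T cell genes to 1.93 to 47.4 FPKM, both below every POLE-mutant anti-PD-1 tumour, and muscle genes to 1.73 to 1170 FPKM, which overlaps. Of the tested genes, 9 of 9 macrophage, 9 of 9 T cell, 1 of 13 muscle and 3 of 3 B cell genes rose. Of the carcinoma markers 1 of 3 fell (median log2 fold change -0.59), and 0 of 5 erythroid and 0 of 1 keratinocyte genes passed. The part of these cells in the difference was not tested.

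Rpl39l, Rps18, Rpl30 and Rpl37 were among the members with the largest falls. Rpl39l had 120.5, 120.3, 93.3, 113 and 137 FPKM in POLE-mutant PBS tumours, whose lowest value lay below that of POLE-mutant anti-PD-1 replicate 5, and its log2 fold change was -1.34 ± 0.392 (SE, adjusted p = 0.0155). Without POLE-mutant anti-PD-1 replicate 1 it was -0.78 (adjusted p = 0.0406), and the call was lost with median-ratio scaling without the 3 libraries (-0.42, adjusted p = 0.0598). Rps18, a protein of the small subunit head, had 118, 158, 231, 239 and 194 FPKM in POLE-mutant anti-PD-1 tumours, against 367, 358, 255, 342 and 390 FPKM in POLE-mutant PBS tumours. Its groups did not overlap, and the log2 fold change was -0.89 ± 0.244 (SE, adjusted p = 0.0104). Rpl30 (ENSMUSG00000058600, chr15:34440505-34443640), which in mammals also binds selenocysteine insertion elements, had 65.7, 77.4, 122, 118 and 102 FPKM in POLE-mutant anti-PD-1 tumours, against 208, 181, 128, 181 and 185 FPKM in POLE-mutant PBS tumours. The lowest PBS value of Rpl30 lay just above the highest anti-PD-1 value, and Rpl30 fell by 0.88 on the log2 scale (SE 0.247, adjusted p = 0.0124). Rpl37, a zinc-binding protein, averaged 238 ± 57.0 FPKM in POLE-mutant anti-PD-1 tumours and 412 ± 56.5 FPKM in POLE-mutant PBS tumours (SD, n = 5 each), with a log2 fold change of -0.79 (adjusted p = 0.0352). The call of Rpl37 was lost with no filter, median-ratio scaling, a muscle score term or M-style libraries alone, and without any 1 of POLE-mutant anti-PD-1 replicates 1, 2 and 5 or POLE-mutant PBS replicates 1, 2, 4 and 5 (adjusted p = 0.0524 to 0.152). With median-ratio scaling the calls of Rps18 and Rpl30 were lost too (adjusted p = 0.0638 and 0.0746), and that of Rpl30 also without POLE-mutant anti-PD-1 replicate 1 (adjusted p = 0.0565).

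In POLE-mutant against vector tumours given PBS, no ribosomal protein gene passed the threshold, and the members with the largest differences were those on chromosome 1. Of the 77 members 0 fell and 0 rose (limma), and 2 (2.6%) had an unadjusted p under 0.05, against 1536 of all genes (11.0%). Other settings of the limma fit called 0 to 9 members. In the main fit the background was 0.923% of all genes that fell and 0.529% that rose. The median log2 fold change was -0.20 in the members and 0.00 over all genes, with 74 of 77 members below 0. That lean was not shared by both identifier styles: the medians were -0.37 and -0.38 (large and small subunit) among M-style libraries and 0.05 and 0.03 among number-only libraries. In 3 members (3.9%), Rpl7, Rpl31 and Rpl41, all POLE-mutant PBS tumours lay below all vector PBS tumours, which held for 5.74% of all genes; Rpl41 is named after its values were seen.

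Rpl31, Rpl37a and Rpl7 are the 3 members on chromosome 1, and their log2 fold changes under PBS, -0.59, -0.54 and -0.54, were the 3 lowest. The 74 tested members elsewhere ran from -0.45 to 0.19 (median -0.19). Over all 871 tested genes of chromosome 1 the median was -0.18, 27 fell and 0 rose. Rpl7 (ENSMUSG00000043716, chr1:16101295-16104662) had 427, 427, 337, 386 and 439 FPKM in POLE-mutant PBS tumours, against 688, 653, 655, 509 and 450 FPKM in vector PBS tumours. Rpl7 did not overlap between the groups but its adjusted p was 0.0869. In tumours given anti-PD-1, Rpl7 had 244, 248, 325, 367 and 299 FPKM in POLE-mutant tumours and 675, 636, 588, 638 and 661 FPKM in vector tumours; it fell by 1.12 on the log2 scale (SE 0.149, adjusted p = 2.79e-05), the smallest adjusted p of any member in that contrast.

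Rpl31 (ENSMUSG00000073702, chr1:39367842-39371911), a protein at the tunnel exit, had 258, 299.8, 249.6, 297 and 316 FPKM in POLE-mutant PBS tumours, against 555, 498, 459, 340.5 and 322 FPKM in vector PBS tumours (adjusted p = 0.333). Under anti-PD-1 it had 228, 202, 237, 235 and 228 FPKM in POLE-mutant tumours, against 1171, 390.4, 370.3, 435 and 442 FPKM in vector tumours. For Rpl7 and Rpl31, all 10 POLE-mutant tumours lay below all 10 vector tumours, whatever the treatment. Those were 2 of 77 members (2.6%), and the same held for 0.694% of all genes. This separation was in FPKM. Set against the mean log2(FPKM + 1) of the tested members in the same library, Rpl7 and Rpl31 both overlapped between POLE-mutant and vector tumours. Rpl37a had 310, 245, 202, 236 and 243 FPKM in POLE-mutant PBS tumours, against 430, 434, 359.6, 298 and 288 FPKM in vector PBS tumours, with overlap (adjusted p = 0.558). Without the 3 libraries that stand apart, Rpl7, Rpl31 and Rpl37a passed the threshold under PBS with adjusted p of 0.00589, 0.00878 and 0.00794 (limma). Those 3 libraries are all anti-PD-1 tumours, so no PBS value was removed, and the log2 fold changes stayed at -0.54, -0.59 and -0.54. What changed was the spread, which the fit estimates over all groups. A limma fit of only the PBS groups also called Rpl7, Rpl31 and Rpl37a (adjusted p = 0.0322, 0.0453 and 0.0381). Without vector PBS replicate 5 alone, Rpl7 passed (adjusted p = 0.0451).

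Rpl39 (ENSMUSG00000079641, chrX:37082520-37085402), an exit tunnel protein encoded on the X chromosome, leaned the other way. It had 446, 425, 335, 406 and 415 FPKM in POLE-mutant PBS tumours, against 341, 435, 351, 350 and 308 FPKM in vector PBS tumours, and the groups overlapped (log2 fold change 0.19 ± 0.206, SE, adjusted p = 0.873). Under anti-PD-1 it had 231, 243, 349, 341 and 257 FPKM in POLE-mutant tumours and 779, 395, 315, 352 and 343 FPKM in vector tumours, the smallest log2 fold change of any member in that contrast (-0.54). Set against the mean log2(FPKM + 1) of the tested members in the same library, Rpl39 was 0.06 to 0.3 in all 10 POLE-mutant tumours and -0.56 to -0.13 in all 10 vector tumours. It was the only 1 of 77 members (1.3%) with all 10 above on that relative scale. The same held for 1.57% of all genes, so the share of members is no higher than the background. Rplp2 and Rpl8 were the other members with a positive log2 fold change under PBS, and Rpl8, a protein near the catalytic centre, averaged 1272 ± 119 FPKM in POLE-mutant PBS tumours and 1250.4 ± 108 FPKM in vector PBS tumours (SD, n = 5 each).

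**Figure D4:**
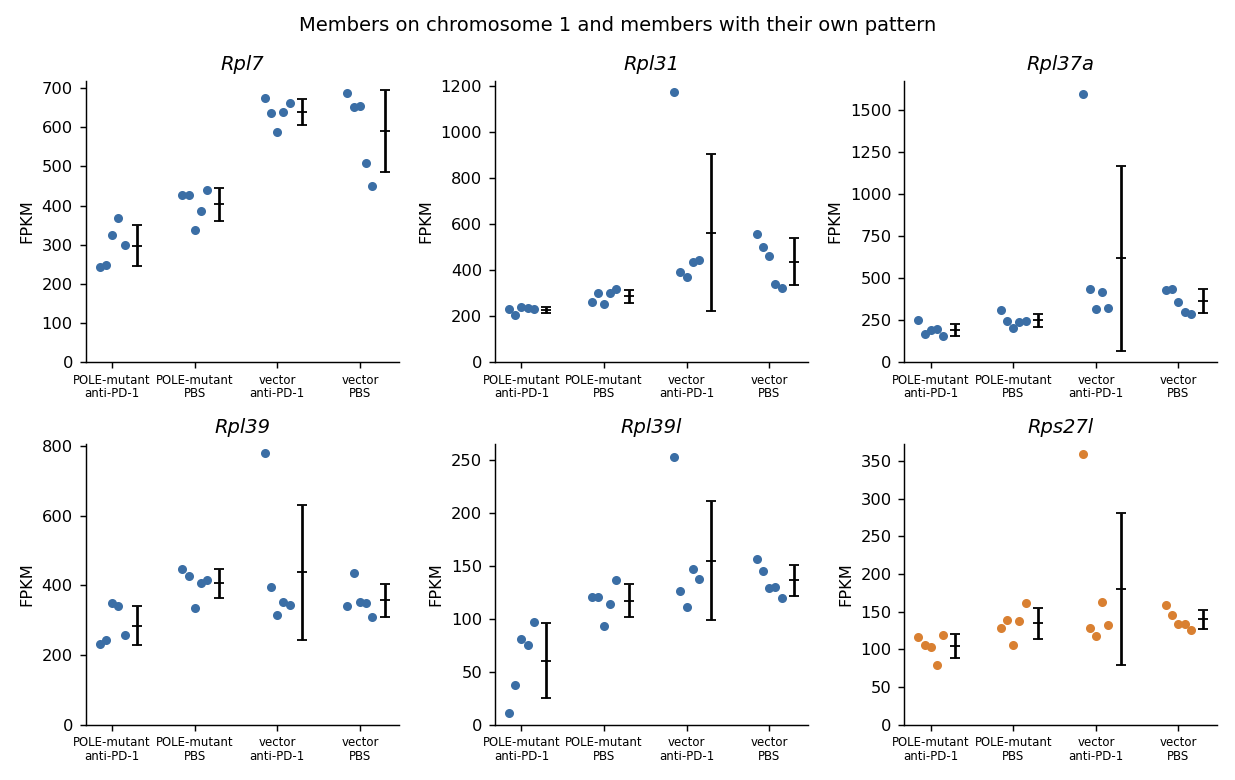
FPKM of 6 members by group, 1 point per tumour, with mean and SD (bars, n = 5) beside the points; large subunit genes in blue, the small subunit gene in orange. Rpl7 and Rpl31 are lower in all 10 POLE-mutant tumours than in all 10 vector tumours, and vector anti-PD-1 replicate 1 is the high point in the other panels.

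In vector tumours no member passed the threshold between anti-PD-1 and PBS, and the positive median rested on 1 library. Of the 77 members 0 fell and 0 rose (limma), as for all genes (0% higher, 0% lower), and 0 members passed under any of the other limma settings run. Only Rplp2 had an unadjusted p under 0.05, as did 426 of all genes. The median log2 fold change of the members was 0.28, with 74 of 77 above 0, against -0.08 over all genes. Without vector anti-PD-1 replicate 1 it was -0.03 for the large and -0.02 for the small subunit. Rplp2, the second acidic stalk protein, had 974, 299, 206, 356 and 218 FPKM in vector anti-PD-1 tumours, against 228, 272, 177, 225 and 217 FPKM in vector PBS tumours (log2 fold change 0.62 ± 0.288, SE, adjusted p = 0.724). Rps9, which takes part in decoding accuracy, averaged 533 ± 361 FPKM in vector anti-PD-1 tumours and 347 ± 49.1 FPKM in vector PBS tumours (SD, n = 5 each). Rpl10, Rpl15 and Rpl29 were the 3 members below 0, at -0.03 to -0.01 on the log2 scale.

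The response to anti-PD-1 differed between POLE-mutant and vector tumours past the threshold in 2 members, both lower: Rpl30 and Rpl4. Those 2 of 77 (2.6%) compare with 1.95% of all genes lower and 7.4% higher in this interaction, so the share is near the background. The median log2 difference of the responses was -0.80 over the members and 0.01 over all genes, with all 77 below 0. For Rpl30 it was -1.15 ± 0.348 (SE, adjusted p = 0.0456). For Rpl4 (ENSMUSG00000032399, chr9:64173375-64178666), whose extension lines the exit tunnel, it was -0.84 ± 0.255 (SE, adjusted p = 0.0474). Rpl4 had 580.2, 682, 974, 1009.6 and 883 FPKM in POLE-mutant anti-PD-1 tumours and 1474, 1429, 1070.5, 1357 and 1526 FPKM in POLE-mutant PBS tumours, and 2213, 1647, 1387, 1419 and 1485 FPKM in vector anti-PD-1 tumours and 1635, 1758, 1636, 1376 and 1259 FPKM in vector PBS tumours.

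The count rested on single libraries, and the share of all genes is given for the main fit only. Without vector anti-PD-1 replicate 1, 21 members passed, and the median difference for the large subunit was -0.52. It was 10 with POLE-mutant PBS replicate 3 left out, 9 with vector anti-PD-1 replicate 3 left out, 4 and 3 without POLE-mutant anti-PD-1 replicates 4 and 3, and 0 or 1 without any other single library.

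In vector anti-PD-1 replicate 1 all 77 tested members were above all 4 other libraries of the group, by 1.06-fold (Rpl7) to 5.86-fold (Rpl36) over the median of those 4 (median 2.96-fold). The median difference was 1.51 for the large and 1.64 for the small subunit on the log2 scale. Rplp1 reached 11485 FPKM there, against 2716 to 3583 FPKM in the other 4, and Rpl36 8570 FPKM against 1226 to 1660 FPKM. After Rpl7, Rpl10 and Rpl15 were raised least, by 1.16-fold and 1.37-fold. These values are FPKM as deposited, and the library's total was 566913 against 347076 to 370420 in the other 4. With every library scaled to the same total, a comparison chosen after seeing the data, 72 members were above and 4 below all 4 others, at 0.689-fold (Rpl7) to 3.72-fold (Rpl36) of their median (median 1.89-fold). POLE-mutant anti-PD-1 replicate 1 had 51 members below and 6 above all 3 libraries of its group that do not stand apart. Its median difference was -0.43 for the large and -0.20 for the small subunit, and it spread from 0.136-fold (Rpl39l) to 1.34-fold (Rpl37a) of their median. POLE-mutant anti-PD-1 replicate 2 had 65 members below and 1 above (Rps27l), with medians of -0.36 and -0.30 and a narrower spread, from 0.458-fold (Rpl39l) to 1.03-fold. No share over all genes stands beside these counts for the 3 libraries. They therefore cannot show whether the shift was particular to ribosomal protein genes or ran through the whole library.

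**Figure D5:**
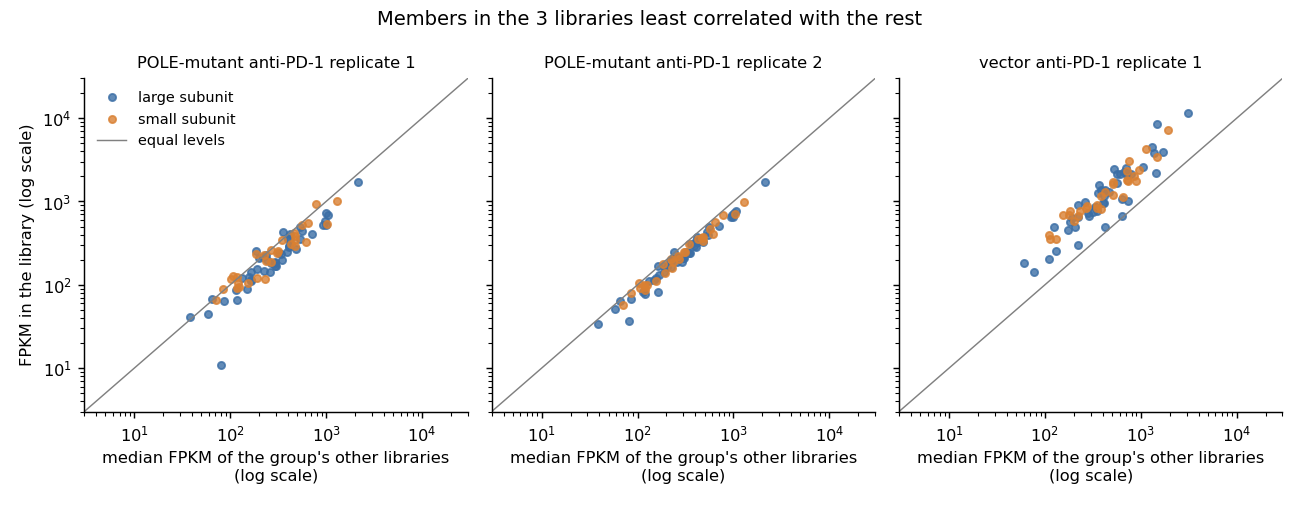
FPKM of each tested member in 1 of the 3 libraries least correlated with the rest (vertical, log scale) against the median of the group's libraries that do not stand apart (horizontal, log scale), large subunit in blue and small in orange. Points lie above the line of equal levels in vector anti-PD-1 replicate 1 and mostly below it in the 2 POLE-mutant libraries, with Rpl39l lowest in replicate 1.

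Rpl3l, the form of Rpl3 found in striated muscle, had 0.481, 6.26, 0.792, 0.191 and 0.218 FPKM in POLE-mutant anti-PD-1 tumours and 0, 0.432, 4.20, 0.0615 and 0 FPKM in POLE-mutant PBS tumours. It had 0.682, 0, 1.58, 0 and 0 FPKM in vector anti-PD-1 tumours and 0.0838, 0, 0, 0 and 0 FPKM in vector PBS tumours. Its 2 highest values, in POLE-mutant anti-PD-1 replicate 2 and POLE-mutant PBS replicate 3, were in the 2 libraries with the highest mean log2(FPKM + 1) of the skeletal muscle genes, 6.68 and 5.98. Rpl10l, a retrogene copy of Rpl10 known from the testis, was listed at 0 in all 20 libraries. Rps27l averaged 105 ± 15.9 FPKM in POLE-mutant anti-PD-1 tumours, 134 ± 20.5 FPKM in POLE-mutant PBS tumours, 179.9 ± 101 FPKM in vector anti-PD-1 tumours and 139.5 ± 13.0 FPKM in vector PBS tumours. Its paralogue Rps27 averaged 328 ± 25.1 FPKM in POLE-mutant anti-PD-1 tumours, 463 ± 77.7 FPKM in POLE-mutant PBS tumours, 751 ± 537 FPKM in vector anti-PD-1 tumours and 524 ± 101 FPKM in vector PBS tumours (SD, n = 5 each). The vector anti-PD-1 means include the high values of replicate 1. Without that library they were 135 ± 19.2 FPKM for Rps27l and 512 ± 55.8 FPKM for Rps27 (SD, n = 4). Rps27l and Rps27 were both lowest on average in POLE-mutant anti-PD-1 tumours.

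Genes of related function were counted in lists chosen by role. Of 8 ribosomal proteins whose symbols the pattern leaves out (Rpsa, Rack1, Rps3a1 and Rpl22l1 among them), 7 fell in POLE-mutant against vector tumours under anti-PD-1, and Rpl7l1 did not pass. Rpl22l1, the paralogue of Rpl22, had 55.8, 52.8, 82.2, 78.6 and 70.9 FPKM in POLE-mutant anti-PD-1 tumours, against 376, 157, 124, 169 and 124 FPKM in vector anti-PD-1 tumours (log2 fold change -1.31 ± 0.254, SE, adjusted p = 0.000815). Of 17 elongation factor and other TOP messages 13 fell and 0 rose in that contrast (median log2 fold change -0.70). Of 30 ribosome biogenesis factors 21 fell and 0 rose (median -0.62), and of 13 RNA polymerase I genes 6 fell and 0 rose (median -0.33). Of 78 mitochondrial ribosomal proteins, 28 fell and 0 rose (median -0.37). In this contrast 15.1% of all genes fell and 17.8% rose.

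In POLE-mutant tumours given anti-PD-1 against PBS the same lists had 4 of 8, 14 of 17, 23 of 30, 8 of 13 and 14 of 78 genes that fell, and 0 that rose, against 14.6% of all genes that fell and 15.9% that rose. Among 17 tested mTORC1 and Myc regulators, 3 rose and 2 fell in each of these contrasts. Mxd1, a Max partner that opposes Myc, averaged 7.99 ± 5.36 FPKM in POLE-mutant anti-PD-1 tumours, against 2.60 ± 0.551 FPKM in POLE-mutant PBS tumours (SD, n = 5 each), and rose (log2 fold change 1.16, adjusted p = 0.00968). Myc averaged 13.6 ± 3.06 FPKM in POLE-mutant anti-PD-1 tumours, against 29.9 ± 13.3 FPKM in POLE-mutant PBS tumours (SD, n = 5 each), and fell (log2 fold change -1.01, adjusted p = 0.00601). Eif4ebp1, a translation repressor that mTORC1 inactivates, fell by 0.99 on the log2 scale (adjusted p = 0.00389).

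Several of the related genes with the smallest p in POLE-mutant against vector tumours under anti-PD-1 also lie on chromosome 1. These were the biogenesis factors Wdr12, Ncl, Nop58 and Wdr75, the elongation factor subunit Eef1b2, and the mitochondrial proteins Mrpl30, Mrpl15 and Mrps9. They were picked by smallest p within each list. Of all 871 tested genes of chromosome 1, 219 fell and 142 rose in this contrast (median log2 fold change -0.12). Over all 13982 tested genes 2112 fell and 2489 rose. Wdr12, which acts in large subunit maturation, had 1.55, 2.38, 3.31, 3.28 and 4.35 FPKM in POLE-mutant anti-PD-1 tumours, against 6.45, 6.03, 5.52, 6.75 and 6.75 FPKM in vector anti-PD-1 tumours. Under PBS Wdr12 had 4.51, 5.32, 4.40, 5.17 and 5.63 FPKM in POLE-mutant tumours and 7.54, 6.48, 6.92, 7.07 and 6.70 FPKM in vector tumours. Within each treatment all 5 POLE-mutant tumours were below all 5 vector tumours. Mrpl15 was the only gene of these lists that passed under PBS (log2 fold change -0.42, adjusted p = 0.0439). The members host 53 annotated small nucleolar RNAs in 28 genes, with a summed FPKM of 73.6 to 118 in POLE-mutant anti-PD-1 tumours and 124 to 221 in POLE-mutant PBS tumours. In vector tumours the sum was 107 to 242 given anti-PD-1 and 125 to 199.6 given PBS.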

How the data were processed

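RNA-seq of 20 CT26 tumours was used, and the authors' deposited values were read as FPKM, since Cuffnorm is named; no header states the unit or scaling. Per the submitters' processing notes, FastQC, STAR 2.5, Cuffnorm, DESeq and the build mm10 were used, in roles and order not given in the sources used here. Depth is unknown. The best step size made 25.5 to 41.0% of low values in a library whole within 5%, so no reads were recovered, and the test planned for read counts did not apply.

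Genes were named from GENCODE vM21. Values were analysed as log2(FPKM + 1) for 13982 genes, those that reached 1 FPKM in 5 or more libraries, so fold changes of low genes are understated. limma 3.58.1 (R 4.3.3) with an intensity trend fitted 4 group means over all 20 libraries plus a term for the style of the title identifier (11 libraries M and a number, 9 a number alone), with Benjamini-Hochberg adjustment over all tested genes at 0.05. The fit was tested on simulated data with independent noise per gene, the same spread in every group and no outlying library. That test therefore does not cover the libraries that stand apart or members that move together. Sums, shares and ratios were computed with Python 3.11.15.

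The members and lists were chosen with earlier results of these data known. Members named were a panel chosen for role, the 5 with the largest rise and fall past the threshold in each contrast (where none passed, 3 per direction by smallest p), and the 3 highest and 3 lowest of each subunit. Alternatives covered the pseudocount, filter, scaling, covariates, weights, trend, samples fitted, identifier styles and each library left out. Some genes that this rule names are not reported here.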

Additional observations from a re-analysis of the deposited data

Results flagged for a closer look

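In each group of 5 tumours, the highest or lowest value was set against the nearest of the others, for the named members and the subunit shares. Of 176 such groups, 44 had a value that lay further out than Dixon's critical value for 5 samples allows. Of these, 38 were in vector anti-PD-1 replicate 1. Chance gives about 1 in 20 for independent groups, but the members share libraries and move together, so the count cannot be set against that share. FPKM were used as deposited. Scaled to the same total, members in vector anti-PD-1 replicate 1 were at 0.689-fold to 3.72-fold of the median of the group's other libraries (median 1.89-fold). Rpl23 was at 1.06-fold and Rps6 at 1.12-fold. In that library the large subunit took 14.3% and the small subunit 8.43% of total FPKM, both the highest of the group. Among large subunit members its FPKM stood apart upwards, at 848 for Rpl3, 850.4 for Rpl5, 642 for Rpl11, 2282 for Rpl13a, 203 for Rpl22, 1059.8 for Rpl23, 2439 for Rpl38, 779 for Rpl39, 253 for Rpl39l, 2581 for Rplp0, 11485 for Rplp1, 974 for Rplp2, 1171 for Rpl31, 1598 for Rpl37a, 3862 for Rpl8, 140.5 for Rpl29, 456 for Rpl30, 1373 for Rpl37, 8570 for Rpl36, 3927 for Rpl23a and 184 for Rpl35a. Among small subunit members it did so at 813 for Rps3, 3459 for Rps4x, 1132 for Rps6, 765 for Rps19, 1707 for Rps27, 898 for Rps27a, 359 for Rps27l, 1299.7 for Rps12, 778 for Rps20, 1175 for Rps9, 837 for Rps18, 7216 for Rps15, 4314 for Rps29, 397 for Rps15a and 357 for Rps13.

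Elsewhere 6 values stood apart. Rpl3l was high in POLE-mutant anti-PD-1 replicate 2 (6.26 FPKM) and in POLE-mutant PBS replicate 3 (4.20 FPKM), and was above 0 only in replicate 1 among vector PBS tumours (0.0838 FPKM). Rpl22 was high in POLE-mutant anti-PD-1 replicate 3 (93.4 FPKM) and low in vector PBS replicate 5 (67.9 FPKM). Rpl31 was low in POLE-mutant anti-PD-1 replicate 2 (202 FPKM).

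The response to anti-PD-1 differed between POLE-mutant and vector tumours in the interaction term for Rpl30 (-1.15, adjusted p = 0.0456, limma) and Rpl4 (-0.84, adjusted p = 0.0474, limma), on the log2 scale. Rpl30 lost this call in 20 and Rpl4 in 23 of 33 alternatives.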

How the results depend on the processing

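The direction of the members' difference between POLE-mutant and vector tumours under anti-PD-1 was the same in all settings tried, but the number of members past the threshold was not. It was 75, and 28 with only the compared groups, 43 with median-ratio scaling without the 3 libraries that stand apart (a setting chosen after seeing the data), and 62 to 77 with 1 library left out. For anti-PD-1 against PBS in POLE-mutant tumours the 19 became 9 with no filter, 2 with median-ratio scaling, 31 with scaling to 1 total, 36 with scaling without small RNA and mitochondrial genes, 5 with a muscle score term, 64 with array weights, 68 with only the compared groups, 9 within M-style and 52 within number-only libraries, 4 in the added setting, and 4 to 24 with 1 library left out. For POLE-mutant against vector tumours under PBS the 0 became 9 with array weights, 3 with only the compared groups, 7 without the 3 libraries, 4 in the added setting, and 0 to 1 with 1 library left out. In vector tumours it was 0 throughout. For the interaction the 2 became 0 with a pseudocount of 0.1, no filter, median-ratio scaling, a muscle score term, without the 3 libraries or in the added setting, 5 with scaling to 1 total or without small RNA and mitochondrial genes, 27 with array weights, 1 within M-style and 13 within number-only libraries, and 0 to 21 with 1 library left out. The large to small ratio had a median of 1.79 without the 3 highest members. Signs turned for no member that had passed or that passed in the setting concerned. Among members that had not passed, 50 of 77 turned under PBS within number-only libraries, and in vector tumours 52 turned without vector anti-PD-1 replicate 1, 47 without the 3 libraries, 50 in the added setting and 37 with array weights. Of the named members, those under PBS included Rplp2 (-0.06 within number-only libraries, 0.00 to 0.19 with 1 library left out) and Rpl8 (-0.02 within M-style libraries, -0.02 to 0.08). In vector tumours they included Rpl10 (0.10 with median-ratio scaling, 0.09 within number-only libraries, -0.11 to 0.04), Rpl15 (0.10, 0.09, 0.02 with the muscle score term, -0.13 to 0.05), Rpl29 (0.12 with median-ratio scaling, 0.07 within M-style libraries, -0.19 to 0.07) and Rplp2 (-0.06 within number-only libraries). Settings with only the compared groups or 1 identifier style use fewer libraries by construction. Shares over all genes are given for the main fit only. A count of members in another setting may therefore follow a change in the calls over all genes. Leaving out the 3 libraries removed no PBS tumour, so under PBS it changed the estimated spread and not the values compared. Otherwise the cause was not tested. No paired analysis was possible because the labels give no shared replicate numbers. Without counts, the limit that depth sets cannot be given.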
